A study of Mus musculus with 12 samples.

Results

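A set of 8 genes of extracellular nucleotide and adenosine signalling was followed in mouse microglia: the ATP-gated channels P2rx4 and P2rx7, the nucleotide receptors P2ry2 and P2ry6, the adenosine receptors Adora2a and Adora3, and the surface enzymes Entpd1 (CD39) and Nt5e (CD73). They were found by matching the RefSeq accession printed for each array probe to the gene list, which gave all 8 genes of 23579 named genes on the arrays. The 8 genes had 10 probes on the one array design and 12 on the other, 14 different probes in all, and every one of them passed the filter on dim probes. On the 8-array slide 4 of the 6 groups were measured. In its arrays labelled ZEB1 knock-down, 4 of the 7 genes with a value differed after transient middle cerebral artery occlusion (tMCAO). Of all 24646 genes tested, 18.1% did. tMCAO is a stroke model in which a brain artery is blocked and reopened. Between genotypes before tMCAO 0 of the 8 passed, with 0% of all genes. On the other slide, after tMCAO, 0 of the 7 with a value passed, against 2.34% of all genes.

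Cells that are damaged or active release ATP, ADP and UTP, which act on nearby cells until they are broken down. P2X receptors are ion channels opened by ATP. P2Y receptors are G protein-coupled and differ in ligand, with P2ry2 answering ATP and UTP and P2ry6 answering UDP. CD39 takes ATP and ADP down to AMP, and CD73 turns AMP into adenosine, which acts on receptors such as those encoded by Adora2a and Adora3. Microglia, the resident macrophages of the brain, are known to use these receptors to sense injury, to extend processes and to take up debris. In the brain Adora2a is also known from striatal projection neurons, which lie in the territory of the middle cerebral artery.

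The microglia came from male mice aged 8 weeks and were isolated by magnetic sorting with a CX3CR1 enrichment kit. There were 6 groups of 2 samples: mice that were wild type, labelled as overexpressing ZEB1 or labelled as ZEB1 knock-down, each before and after tMCAO. The strain, the promoter or cell type driving overexpression, the knock-down method, the time after occlusion and the number of animals behind a sample are not given in the sources used here, so the p-values below reflect only how far these samples scatter, and that scatter can be technical. Wild type and overexpression after tMCAO lay on one slide (the 4-array slide), and the other 4 groups lay on another slide of a different design (the 8-array slide). Tests were made only within a slide.

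The probes of Zeb1, the manipulated gene, did not follow the labels. On the 8-array slide and before tMCAO, the Zeb1 log2 difference from wild type with all spots kept was 0.26 ± 0.23 (SE; limma adjusted p = 0.771) in the arrays labelled overexpression and 0.13 ± 0.23 (adjusted p = 0.984) in those labelled knock-down. After tMCAO it was -0.021 ± 0.29 (adjusted p = 0.974) in the arrays labelled overexpression. The sources used here do not give which part of Zeb1 these probes read or which part was altered. Groups are therefore named below as the arrays labelled overexpression or labelled knock-down. Replicate arrays correlated at 0.963 to 0.987 across probes, which are not independent replicates, and the scanner software marked 1.03% to 23.7% of an array's spots as non-uniform or outlying. All 12 microglia markers were well above background on every array, and so were at least 9 of the 10 neuron markers.

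The members lie on 6 chromosomes of the mouse assembly GRCm38.p6, in the RefSeq annotation. P2rx7 (chr5:122643927-122692336) and P2rx4 (chr5:122707518-122729739) are 15181 bases apart with 1 annotated gene between them. P2ry6 (chr7:100937630-100975498) and P2ry2 (chr7:100996568-101012053) are 21069 bases apart with 0 annotated genes between them. Adora3 lies at chr3:105904421-105908928, Adora2a at chr10:75316877-75334792, Nt5e at chr9:88327609-88372089 and Entpd1 at chr19:40612366-40741602. The sources used here do not give the exon that each probe targets.

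The 250 bases before the annotated start are shown for Adora3 and P2ry2, because both rose after tMCAO, and for Entpd1, because it holds the motif otherwise found only at P2ry2 among the members' windows searched. They are RefSeq sequences of GRCm38.p6, written 5′ to 3′ on the gene's strand. Capitals in the Adora3 window (chr3:105904171-105904420, plus strand) mark TGANTCA, a motif of the AP-1 factors, 98 bases before the start, and the reverse complement of GAGGAAGT, a motif of the myeloid factor PU.1, 30 bases before it. Capitals in the P2ry2 window (chr7:101012054-101012303, minus strand) and the Entpd1 window (chr19:40612116-40612365, plus strand) mark CAGGTG, the E-box that ZEB1 is known to bind, 213 and 245 bases before the start.
Adora3: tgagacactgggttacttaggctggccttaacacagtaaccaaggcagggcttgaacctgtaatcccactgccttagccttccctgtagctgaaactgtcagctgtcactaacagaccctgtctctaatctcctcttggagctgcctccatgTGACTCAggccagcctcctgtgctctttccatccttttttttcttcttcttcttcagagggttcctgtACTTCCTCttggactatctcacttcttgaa
P2ry2: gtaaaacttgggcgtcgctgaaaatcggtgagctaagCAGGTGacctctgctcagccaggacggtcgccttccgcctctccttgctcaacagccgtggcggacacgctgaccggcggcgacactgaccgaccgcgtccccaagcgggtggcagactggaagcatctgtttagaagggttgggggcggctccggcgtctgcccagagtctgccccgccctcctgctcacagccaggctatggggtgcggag
Entpd1: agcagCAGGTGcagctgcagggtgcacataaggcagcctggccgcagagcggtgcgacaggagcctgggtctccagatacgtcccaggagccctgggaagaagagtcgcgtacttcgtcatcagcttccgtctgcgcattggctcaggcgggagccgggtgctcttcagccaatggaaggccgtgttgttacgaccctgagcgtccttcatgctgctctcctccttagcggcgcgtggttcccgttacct
The motifs were searched on both strands in the 9 windows of the 6 members that have one in the RefSeq table, and no motif match overlaps another. The 9 windows are not all separate, since the 2 P2ry2 windows overlap. CAGGTG was found in 2 of the 9 windows, against 17.2% of all 32851 windows of that length. TGANTCA was found in 2 of the 9 (Adora3 and a P2rx7 window), against 6.7%, and GAGGAAGT in 1 of the 9, against 2.4%. These matches describe letters in a window only.

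The first comparison asked how the genes differed after tMCAO from before it in the arrays labelled knock-down, the only genotype with both times on the same slide. P2ry6, Adora3 and P2ry2 rose and 1 receptor fell (Adora2a). With marked spots left out, 4 of the 7 members with a value passed limma at an adjusted p under 0.05, 3 higher and 1 lower, whereas 18.1% of the 24646 genes tested passed, 11.1% higher and 7.03% lower. At an unadjusted p under 0.05 there were 5 of the 7, against 37.1% of all genes. Of the 5 members with 2 unmarked values in each group, 3 lay above without overlap and 1 below, against 35.9% and 27% of all such genes. The median log2 difference of the 7 members was 0.73, beside 0.045 over all genes tested. Levels are log2 intensities with the array's 75th percentile as 0. In such bulk samples, fewer cells of a type and less RNA per cell cannot be told apart.

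P2ry6, the UDP receptor known for its part in microglial phagocytosis, showed the largest difference of the members. Its level was 0.56 on the first array labelled knock-down after tMCAO and -0.11 on the second, whose spot was marked, against -2.36 and -2.41 before tMCAO. Both arrays after tMCAO lay above both arrays before it, and above the wild type and overexpression-labelled arrays before tMCAO as well, which were at -2.03 and -1.94 and at -2.37 and -2.25. On the unmarked spots the log2 difference was 2.95 ± 0.16 (SE, 1 array against 2), a 7.72-fold higher signal (limma adjusted p = 0.00282). With all spots kept it was 2.61 ± 0.23 (2 arrays against 2; adjusted p = 0.00337). Without the first array after tMCAO no unmarked value remains.

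P2ry2, the receptor for ATP and UTP, was at -1.01 and -1.60 in the arrays labelled knock-down after tMCAO and at -2.63 and -2.75 before it. The groups did not overlap, and the log2 difference was 1.39 ± 0.27 (n = 2 arrays per group), or 2.61-fold (limma adjusted p = 0.0241). That call was lost without the first array after tMCAO (1.09, adjusted p = 0.0707), without the first array before it (1.44, adjusted p = 0.0886) and without the second array before it (1.33, adjusted p = 0.111). It was also lost with no filter on dim probes (adjusted p = 0.0527).

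Adora3, a Gi-coupled adenosine receptor, was at -0.90 and -1.61 after tMCAO and at -2.80 and -2.72 before it in the arrays labelled knock-down. Again the groups did not overlap, and the signal was 2.84-fold higher after tMCAO (log2 difference 1.5 ± 0.24, n = 2 per group, limma adjusted p = 0.0137). The call was lost without either array before tMCAO, at 1.46 (adjusted p = 0.0703) and 1.55 (adjusted p = 0.0717).

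Adora2a, a Gs-coupled adenosine receptor, went the other way. It lay at -0.53 and -0.74 in the arrays labelled knock-down after tMCAO and at 0.89 and 1.08 before it, and the 6 arrays before tMCAO of all 3 genotypes lay between 0.79 and 1.08. The signal was 3.07-fold lower after tMCAO (log2 difference -1.62 ± 0.14, n = 2 per group, limma adjusted p = 0.00401). This call held without each of the 4 arrays in turn, with adjusted p from 0.00952 to 0.0332.

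The P2X channels gave no call on the probe used for each gene. P2rx7, the ATP-gated channel known for inflammasome activation, was at -0.43 and -1.42 after tMCAO and at -1.76 and -1.44 before it, a log2 difference of 0.68 ± 0.32 (n = 2 per group, limma adjusted p = 0.183). The second array after tMCAO lay next to the arrays before it, and without it the difference was 1.17 (adjusted p = 0.0278), whereas without the first array after tMCAO it was 0.18 (adjusted p = 0.571). P2rx7 was also called with normexp background correction (0.76, adjusted p = 0.0420). P2rx4, the other microglial ATP channel, was at 1.12 and 0.33 after tMCAO and at 0.53 and 0.71 before it, so its groups overlapped, and its difference of 0.11 ± 0.26 (adjusted p = 0.78) had a 95% interval from -0.51 to 0.74.

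On the probe used for each gene the enzymes gave no call either, except for Entpd1 under some alternative processing. Entpd1, which encodes CD39, was at -1.66 and, on a marked spot, -2.36 after tMCAO, against -2.55 and -2.24 before it. The unmarked difference was 0.73 ± 0.19 (1 array against 2, limma adjusted p = 0.0585), and with all spots kept it was 0.39 ± 0.25 (2 against 2, adjusted p = 0.317) with overlapping groups. Entpd1 passed with the mean of its probes (1.0, adjusted p = 0.0252), with normexp (0.70, adjusted p = 0.0362) and when probes had to be well above background on every array (0.73, adjusted p = 0.0358). Nt5e, which encodes CD73, had both spots marked after tMCAO, at -2.26 and -1.83, against -2.26 and -2.45 before it. With all spots kept its difference was 0.31 ± 0.27 (n = 2 per group, adjusted p = 0.462).

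The probes of a gene did not all give the same size of difference. For P2rx7, a second probe, annotated to another transcript (NM_001038887), was at -1.17 and -2.13 after tMCAO and at -3.73 and -3.51 before it. Tested on its own among all probes it differed by 1.97 ± 0.40 (n = 2 per group, limma adjusted p = 0.0313), while the third P2rx7 probe differed by 0.51 ± 0.33 (adjusted p = 0.305). The second Entpd1 probe was at -2.11 and, on a marked spot, -2.69 after tMCAO and at -3.34 and -3.43 before it, a difference of 1.27 ± 0.20 (1 array against 2, adjusted p = 0.0258), or 0.98 ± 0.22 with all spots kept (2 against 2, adjusted p = 0.0327). The second P2rx4 probe differed by -0.32 ± 0.18 (adjusted p = 0.256), the opposite sign of the first.

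**Figure D1:**
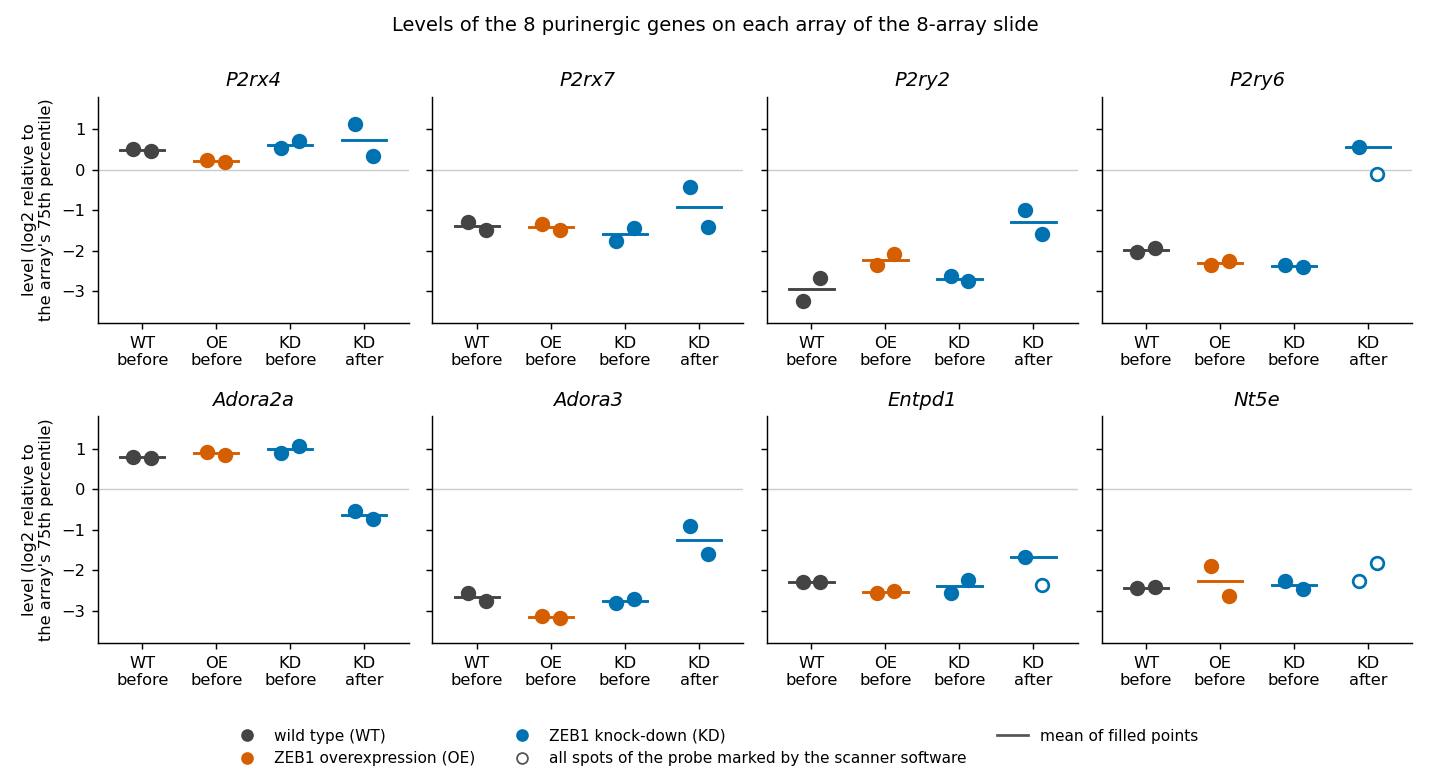
Level of each of the 8 genes (log2, 0 at the 75th percentile of its array, vertical axis) on every array of the 8-array slide, grouped by label (WT wild type, OE labelled ZEB1 overexpression, KD labelled ZEB1 knock-down; before or after tMCAO); open points have all spots of the probe marked by the scanner software, and bars are means of the filled points. P2ry6, P2ry2 and Adora3 lie higher and Adora2a lower in the arrays labelled knock-down after tMCAO than in the 6 arrays before tMCAO.

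Marker genes of several cell types moved in the same comparison. The mean level of the 12 microglia markers ran from 1.56 to 1.8 in the arrays labelled knock-down after tMCAO and from 1.01 to 1.02 before it, and 4 of the 8 with a value passed higher and 0 lower, among them Trem2 at 1.49 ± 0.20 (limma adjusted p = 0.00878) and Cx3cr1 at 1.41 ± 0.33 (adjusted p = 0.0362). The 10 monocyte and border macrophage markers ran from 0.51 to 0.84 against -1.75 to -1.65, and 6 of the 8 with a value passed higher, among them Ms4a7 at 3.27 ± 0.46 (adjusted p = 0.0103) and Ccr2 at 3.23 ± 0.85 (adjusted p = 0.0493). The 9 endothelial and mural markers ran from -0.52 to -0.32 against -1.41 to -1.31, with 4 of 6 higher. Lymphocyte markers passed lower in 2 of 7 (median -0.96), with mean levels of -6.38 to -4.80 against -5.77 to -5.42, and erythroid markers in 2 of 3 (median -1.97), at -4.19 to -3.18 against -3.25 to -2.41. All 10 monocyte and border macrophage markers and all 9 endothelial and mural markers were well above background on these 4 arrays. Of the 10 lymphocyte markers, only 3 to 7 were well above background after tMCAO and 6 to 7 before it. Of the 5 erythroid markers, 2 to 3 were so after tMCAO and 4 before it. The part of these cell types in the rise of P2ry6, P2ry2 and Adora3 was not tested.

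The neuron markers stood the other way, beside Adora2a. Their mean level ran from 1.27 to 1.51 after tMCAO and from 1.83 to 1.91 before it in the arrays labelled knock-down, and 2 of the 5 with a value passed lower and 0 higher. These were Slc17a7, a vesicular glutamate transporter, at -1.23 ± 0.16 (limma adjusted p = 0.00888) and Ppp1r1b, which encodes the striatal phosphoprotein DARPP-32, at -0.80 ± 0.17 (adjusted p = 0.0298). Of the other striatal genes, Penk was at -0.46 ± 0.18 (1 array against 2, adjusted p = 0.156) and Drd2 at -0.21 ± 0.47 (adjusted p = 0.771). Drd2 was not well above background on the first array labelled knock-down after tMCAO. Adora2a differed by -1.62, and the part of neuronal RNA in its fall was not tested.

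The place on the slide and the share of marked spots also differed between these groups. The arrays labelled knock-down after tMCAO lay in row 1, columns 1 and 2, with 20.8% and 23.5% of spots marked, and those before tMCAO lay in row 2, columns 3 and 4, with 1.87% and 1.03% marked. Row, side and time after tMCAO therefore cannot be told apart in this comparison. The overexpression-labelled arrays before tMCAO shared columns 1 and 2 and had 23.7% and 18.2% of spots marked. They had P2ry6 at -2.37 and -2.25, P2ry2 at -2.36 and -2.09, Adora3 at -3.12 and -3.19 and Adora2a at 0.93 and 0.85. The part of slide place and marked spots in the differences after tMCAO was not tested.

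**Figure D2:**
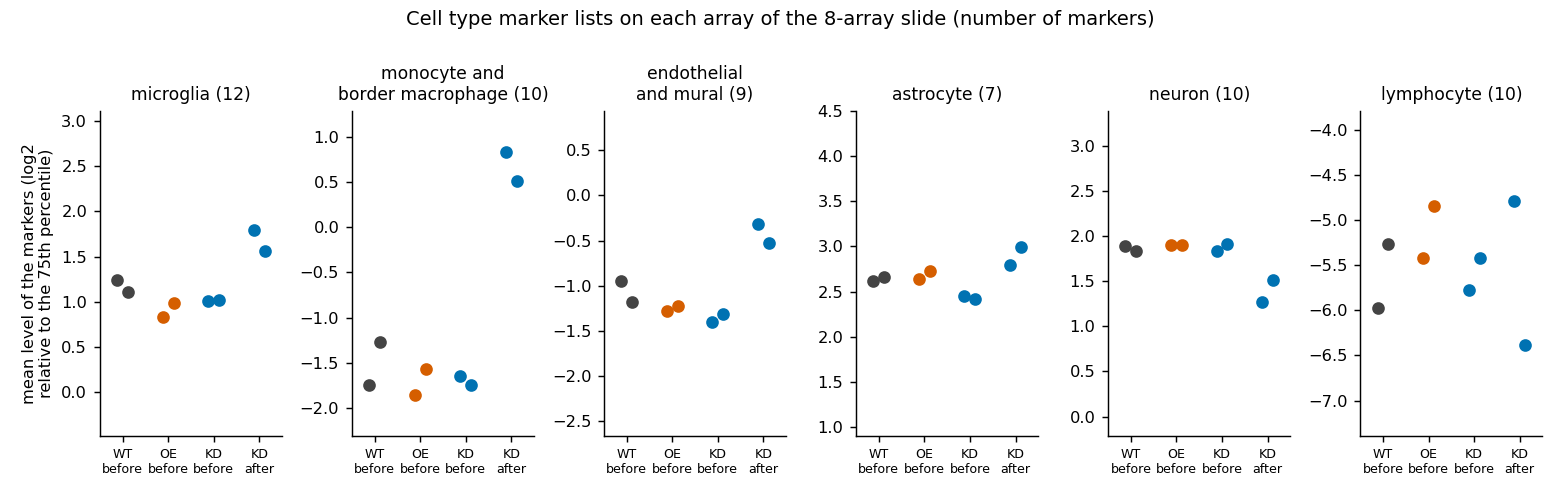
Mean level of the marker genes of 6 cell types (log2, 0 at the 75th percentile of its array, vertical axes of equal span) on each array of the 8-array slide, grouped by label as WT, OE and KD before tMCAO and KD after it, with the number of markers in each title. Arrays labelled knock-down after tMCAO lie above the other 6 on the microglia, monocyte and border macrophage, endothelial and mural, and astrocyte lists. On the neuron list they lie below the other 6.

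The next comparisons asked whether the genotypes differed before tMCAO. On the probe used for each of the 8 genes they did so by at most 0.73 on the log2 scale. In each of the 3 comparisons limma called 0 of the 8 genes, with 0% of all genes called. Tested were 25162 genes for overexpression against wild type, 30293 for knock-down against wild type and 25167 for overexpression against knock-down. At an unadjusted p under 0.05 there were 2929, 2653 and 3715 genes (11.6%, 8.76% and 14.8%), of which 1, 1 and 0 were members. Without overlap, 2 of the 8 members lay above and 4 below for overexpression against wild type (22.6% and 26.1% of all genes), 2 above and 1 below for knock-down against wild type (13.6% and 30.6%), and 1 above and 2 below for overexpression against knock-down (33% and 16.9%). The members' median log2 differences were -0.14, -0.0085 and -0.0074, beside -0.010, -0.068 and 0.098 over all genes tested. The comparisons of each label with wild type share the wild type arrays, and the comparison of the labels shares its arrays with both.

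P2ry2 had the largest difference between overexpression-labelled and wild type arrays before tMCAO. It was at -2.36 and -2.09 in the former and at -3.24 and -2.68 in the latter, which do not overlap, and the difference was 0.73 ± 0.27 (n = 2 per group, limma adjusted p = 0.401). Adora3 stood at -3.12 and -3.19 against -2.57 and -2.76, a difference of -0.48 ± 0.24 (adjusted p = 0.498). P2ry6 stood at -2.37 and -2.25 against -2.03 and -1.94, a difference of -0.33 ± 0.13 (adjusted p = 0.441). On the probe used for each, the other 5 genes differed by -0.28 to 0.17, with adjusted p from 0.595 to 0.979.

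In the knock-down-labelled arrays before tMCAO, P2ry6 was at -2.36 and -2.41, below both wild type arrays, with a difference of -0.40 ± 0.13 (n = 2 per group, limma adjusted p = 0.480). On the probe used for each, the other 7 genes lay within 0.27 of wild type, with adjusted p from 0.817 to 0.975. Other probes stood further apart. The second P2rx7 probe was at -3.73 and -3.51 in the knock-down-labelled arrays and at -2.41 and -3.13 in wild type. The second Entpd1 probe was at -3.34 and -3.43 against -2.90 and -3.11. The 95% intervals for knock-down against wild type reached furthest for P2rx7, from -1.0 to 0.57, and for P2ry2, from -0.39 to 0.93, so differences of up to those sizes were not resolved by 2 arrays per group. Between the labels themselves, overexpression minus knock-down, the members' used probes ran from -0.41 (P2rx4, adjusted p = 0.472) to 0.46 (P2ry2, adjusted p = 0.451).

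**Figure D3:**
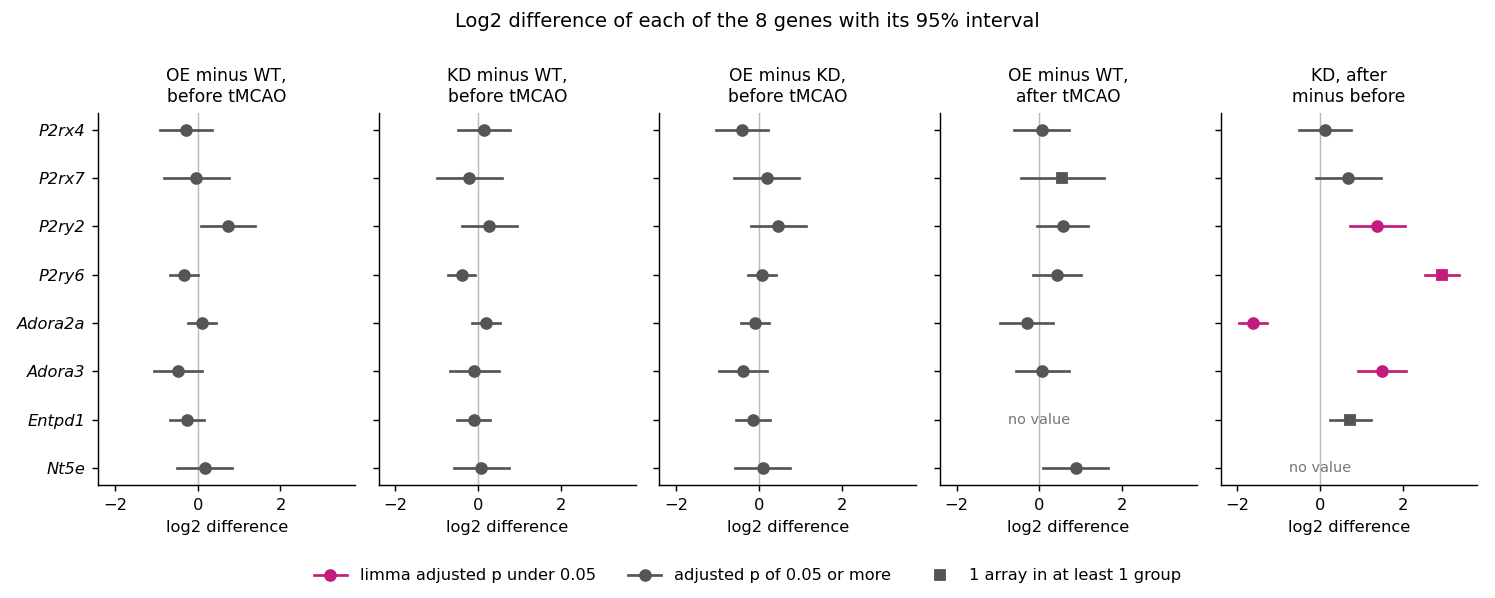
Log2 difference (horizontal axes) of each of the 8 genes in the 5 tested comparisons, with its 95% interval; coloured points passed limma at an adjusted p under 0.05, squares rest on 1 array in at least 1 group, and "no value" means that every spot of a group was marked. Calls appear only for the arrays labelled knock-down after minus before tMCAO, for P2ry2, P2ry6, Adora2a and Adora3.

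After tMCAO, the overexpression-labelled arrays were compared with wild type on the 4-array slide. The 8 genes did not pass there: limma called 0 of the 7 with a value, whereas 2.34% of the 22072 genes tested were called (516, with 1.59% higher and 0.748% lower). At an unadjusted p under 0.05 there were 1 member and 4647 genes (21.1%). The median log2 difference of the 7 was 0.42, beside -0.11 over all genes tested, and 6 of the 7 were above 0. In 3 of the 6 genes with 2 unmarked values in each group the overexpression-labelled arrays lay above both wild type arrays, and in 0 below both, whereas over all genes 21.9% lay above and 35.1% below. The wild type arrays lay in row 1, columns 3 and 4, and the overexpression-labelled arrays in row 2, columns 2 and 4, so row and label cannot be told apart.

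Nt5e, the last step to adenosine, showed the largest difference of the members. It was at -2.56 and -2.21 in the overexpression-labelled arrays and at -3.67 and -2.85 in wild type, which do not overlap, a difference of 0.87 ± 0.33 (n = 2 per group, limma adjusted p = 0.201). The SD within wild type was 0.58, and the difference ran from 0.46 to 1.28 when each array was left out in turn, the lowest without the first wild type array. P2ry2 was at 1.15 and 1.55 against 0.72 and 0.86, a difference of 0.56 ± 0.26 (adjusted p = 0.277). P2ry6 was measured here by another probe, spotted 10 times, of which 2 to 8 spots per array were marked. It was at 2.27 and 2.54 against 2.0 and 1.98, a difference of 0.42 ± 0.24 (adjusted p = 0.379).

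P2rx7 had 1 unmarked array in each group, at 2.34 in overexpression and 1.79 in wild type, a difference of 0.55 ± 0.39 (limma adjusted p = 0.486). Its marked spots were at 2.40 and 2.0, and with all spots kept the difference was 0.47 ± 0.23 (2 against 2, adjusted p = 0.274). Its other 2 probes went the other way, at -0.094 ± 0.25 (adjusted p = 0.861) and -0.16 ± 0.33 (adjusted p = 0.821). Adora3 was at 3.19 and 3.04 against 3.31 and 2.78, and P2rx4 at 2.92 and 3.13 against 3.24 and 2.70, so both genes overlapped between groups (differences 0.072 and 0.057). Adora2a was at 0.72 and 0.25 against 0.70 and 0.89, a difference of -0.31 ± 0.27 (adjusted p = 0.551). Entpd1 had both wild type spots marked, at 0.98 and 0.43, against 1.24 and, marked, 0.84, and with all spots kept it differed by 0.33 ± 0.29 (adjusted p = 0.526).

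Marker levels of several other cell types also stood apart between these groups. The microglia markers had mean levels of 3.18 to 3.19 in wild type and 3.11 to 3.13 in the overexpression-labelled arrays after tMCAO. The neutrophil markers were at 2.10 to 2.29 and 2.65 to 2.93, with 1 of 3 passing higher (Elane, 2.01 ± 0.37, limma adjusted p = 0.0463). The monocyte and border macrophage markers were at 0.17 to 0.43 and 0.66 to 0.78, with 0 of 7 passing. The lymphocyte markers were at -1.63 to -1.39 and -1.41 to -0.20, which overlap, with 0 of 8 passing and all 8 differences above 0. Lower in the overexpression-labelled arrays were the endothelial and mural markers, at -0.63 to -0.59 and -1.70 to -1.58 (0 of 6 passing), and the oligodendrocyte lineage markers, at 1.54 to 1.57 and 1.02 to 1.12 (0 of 4 passing). The neuron markers, which stand beside Adora2a, were at 1.22 to 1.27 and 0.73 to 1.12, with 0 of 5 passing and a median difference of -0.39. The part of these cells in the members' differences was not tested.

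**Figure D4:**
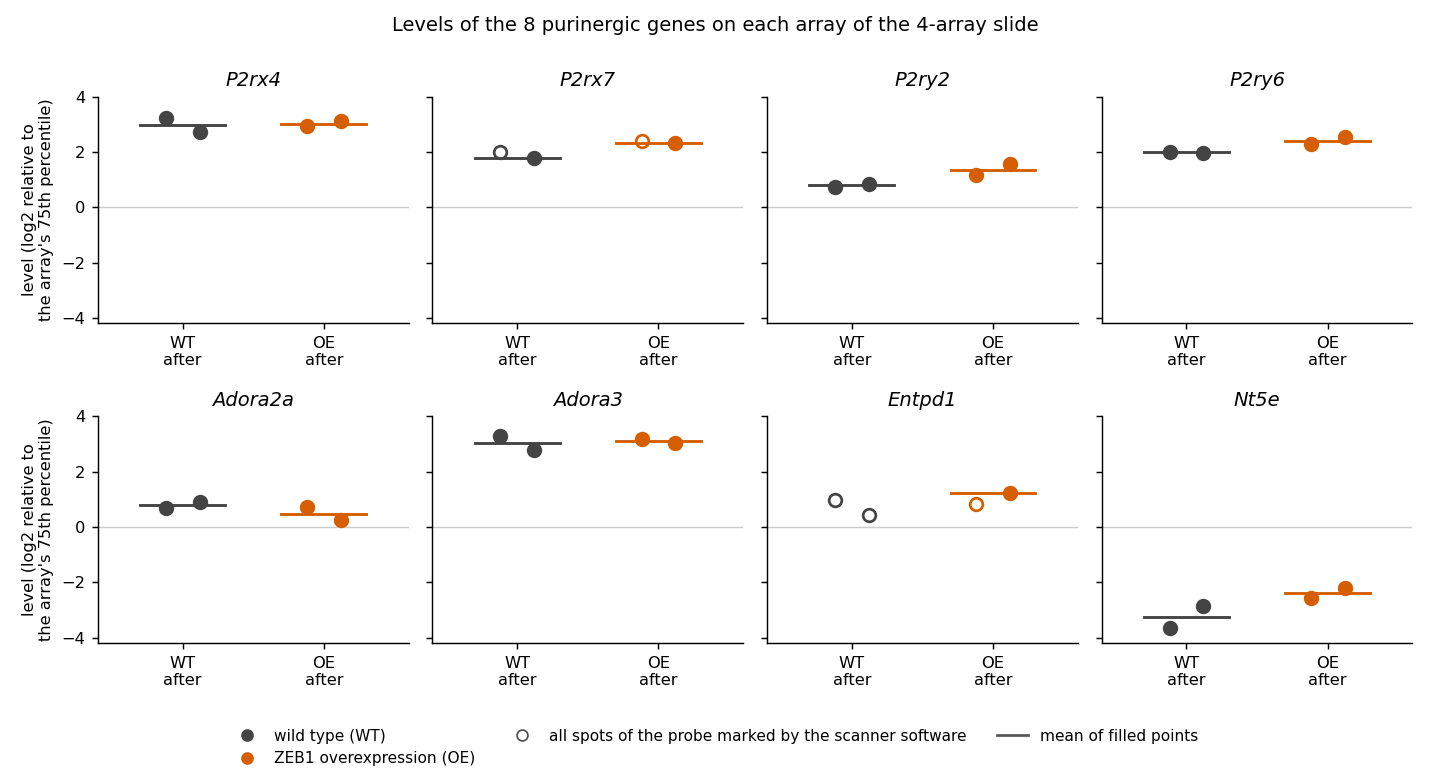
Level of each of the 8 genes (log2, 0 at the 75th percentile of its array, vertical axis) on every array of the 4-array slide, in wild type (WT) and in the arrays labelled ZEB1 overexpression (OE), both after tMCAO; open points have all spots of the probe marked, and bars are means of the filled points. Nt5e, P2ry2 and P2ry6 lie above wild type on both arrays labelled overexpression, and the 2 groups overlap for P2rx4, Adora2a and Adora3.

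For wild type and overexpression, the times before and after tMCAO lay on slides of different design that were scaled separately, so slide and time cannot be told apart and the values are given side by side with no test. On the probe used for each gene, where both slides carry it, Adora3 was at 3.04 ± 0.37 (SD, n = 2) in wild type after tMCAO and at -2.67 ± 0.14 before it, and at 3.12 ± 0.10 and -3.15 ± 0.051 with the overexpression label. The wild type levels of P2ry2 were 0.79 ± 0.10 and -2.96 ± 0.40, and its levels with the overexpression label were 1.35 ± 0.28 and -2.23 ± 0.19. For P2rx4 the wild type levels were 2.97 ± 0.38 and 0.49 ± 0.035, and those with the overexpression label 3.03 ± 0.15 and 0.20 ± 0.030. These 3 receptors stood higher on the 4-array slide in both genotypes, by 5.71 and 6.27 for Adora3, 3.75 and 3.58 for P2ry2 and 2.48 and 2.82 for P2rx4. A second probe, annotated to P2rx4 by accession on the 8-array design alone but spotted on both, stood 0.95 higher in wild type. For P2rx7 the probe with 2 unmarked values on both slides differed by genotype, and it stood 4.43 higher in wild type and, on another probe, 3.97 higher with the overexpression label.

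The whole arrays were also shifted between the slides. Of 15470 shared probes in wild type, 59.1% lay above on the 4-array slide without overlap and 29.6% below, with a median difference of 0.75. Of 14028 shared probes with the overexpression label, 62.6% lay above and 21.8% below, with a median of 0.99. Against that background Adora2a stood at 0.80 ± 0.13 after and 0.79 ± 0.0087 before tMCAO in wild type, and at 0.49 ± 0.33 and 0.89 ± 0.055 with the overexpression label. The wild type levels of Nt5e were -3.26 ± 0.58 and -2.43 ± 0.023, and its levels with the overexpression label were -2.39 ± 0.25 and -2.26 ± 0.51. The microglia markers differed between the slides too, with mean levels of 3.11 to 3.19 on the 4-array slide and 0.83 to 1.24 before tMCAO on the 8-array slide. P2ry6 and Entpd1 were read by different probes on the slides, and no level is set across them.

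A further 38 genes of the pathway were read from the same fits. After against before tMCAO in the arrays labelled knock-down, 3 of the 30 with a value passed higher and 1 lower, against 11.1% and 7.03% of all genes, with a median log2 difference of -0.13. Enpp1, an ectoenzyme that cleaves ATP to AMP and pyrophosphate, was at 0.35 and, on a marked spot, -0.57 after tMCAO, against -2.73 and -2.64 before it (log2 difference 3.03 ± 0.24, 1 array against 2, limma adjusted p = 0.00491). With all spots kept its difference was 2.57 (2 against 2, adjusted p = 0.00726). Ada, which deaminates adenosine, was at -1.42 and, on a marked spot, -1.09, against -3.35 and -3.98 (2.25 ± 0.33, 1 array against 2, adjusted p = 0.0248). Its call was lost without either array before tMCAO (2.56, adjusted p = 0.0524, and 1.93, adjusted p = 0.0754), with no filter on dim probes (adjusted p = 0.0532) and with only the compared groups in the fit (adjusted p = 0.0531).

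Adora2b, the low-affinity adenosine receptor, was at -2.89 and -2.64 after tMCAO and at -3.59 and -3.69 before it in the arrays labelled knock-down (0.88 ± 0.20, n = 2 per group, limma adjusted p = 0.0332). That call was lost without each of the 4 arrays in turn, with differences from 0.75 to 1.0 and adjusted p from 0.0606 to 0.134. It was also lost with no filter on dim probes, with only the compared groups in the fit and with quantile normalization (adjusted p = 0.0532, 0.0567 and 0.0673). P2rx3, a channel known from sensory neurons, was at least 1.41-fold lower, being not well above background on either array after tMCAO (limma adjusted p = 0.04). That bound sets its mean before tMCAO against the dimmest signal that was well above background, or its own signal if higher, on each array after tMCAO. Its call was lost without the first array after tMCAO (-0.80, adjusted p = 0.116), without either array before it (-1.05, adjusted p = 0.145, and -1.17, adjusted p = 0.130) with normexp background correction (-0.26, adjusted p = 0.345), with no filter (adjusted p = 0.0532) and with only the compared groups in the fit (adjusted p = 0.0688). Adora2a and Adora2b thus stood on opposite sides, whereas Adora1, the neuronal A1 receptor, differed by -0.24 ± 0.18 (1 array against 2, adjusted p = 0.390).

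Of the named microglial receptors and ATP channels, P2ry13 differed by 0.48 ± 0.24 (n = 2 per group, limma adjusted p = 0.207), P2ry1 by -0.31 ± 0.32 (adjusted p = 0.516) and Panx1, an ATP-releasing channel, by -0.35 ± 0.14 (adjusted p = 0.128). P2ry12, the ADP receptor that marks homeostatic microglia, had both spots marked after tMCAO, at 0.41 and 1.45, against 1.44 (marked) and 1.31 before it. Adk, which returns adenosine to AMP, also had both spots marked after tMCAO, at 0.028 and -0.10 against 0.33 and 0.040.

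In the other comparisons the pathway gave 1 call. Slc28a2, a concentrative nucleoside carrier, was at 0.78 on the one unmarked overexpression-labelled array after tMCAO and at -2.24 on the one unmarked wild type array (3.02 ± 0.39, 1 against 1, limma adjusted p = 0.0358), with marked spots at 0.83 and -1.07. With all spots kept it differed by 2.46 (2 against 2, adjusted p = 0.0260), and the call was lost without the first wild type array (adjusted p = 0.106), although that array's own spot was already left out. It was also lost with the mean of a gene's probes (adjusted p = 0.0642), with no filter (adjusted p = 0.244) and with quantile normalization (adjusted p = 0.0592). Of the 29 pathway genes with a value there, 0 passed lower, and the next largest difference was that of Slc29a3, an endosomal nucleoside carrier, at 1.43 ± 0.32 (1 against 2, adjusted p = 0.0815). Before tMCAO 0 pathway genes passed in the 3 comparisons (29, 35 and 29 with a value). Among pathway genes well above background on every array of both groups, the largest differences there were those of P2ry14 (-0.47 ± 0.37, adjusted p = 0.661) and Entpd5 (0.34 ± 0.15, adjusted p = 0.444) for overexpression against wild type, and of P2ry1 (0.58 ± 0.32, adjusted p = 0.721) and Ada (-0.55 ± 0.27, adjusted p = 0.713) for knock-down against wild type. Between the labels, under the same limit, they were those of P2ry1 (-0.66 ± 0.32, adjusted p = 0.382) and Ada (0.47 ± 0.33, 1 against 2, adjusted p = 0.540).

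**Figure D5:**
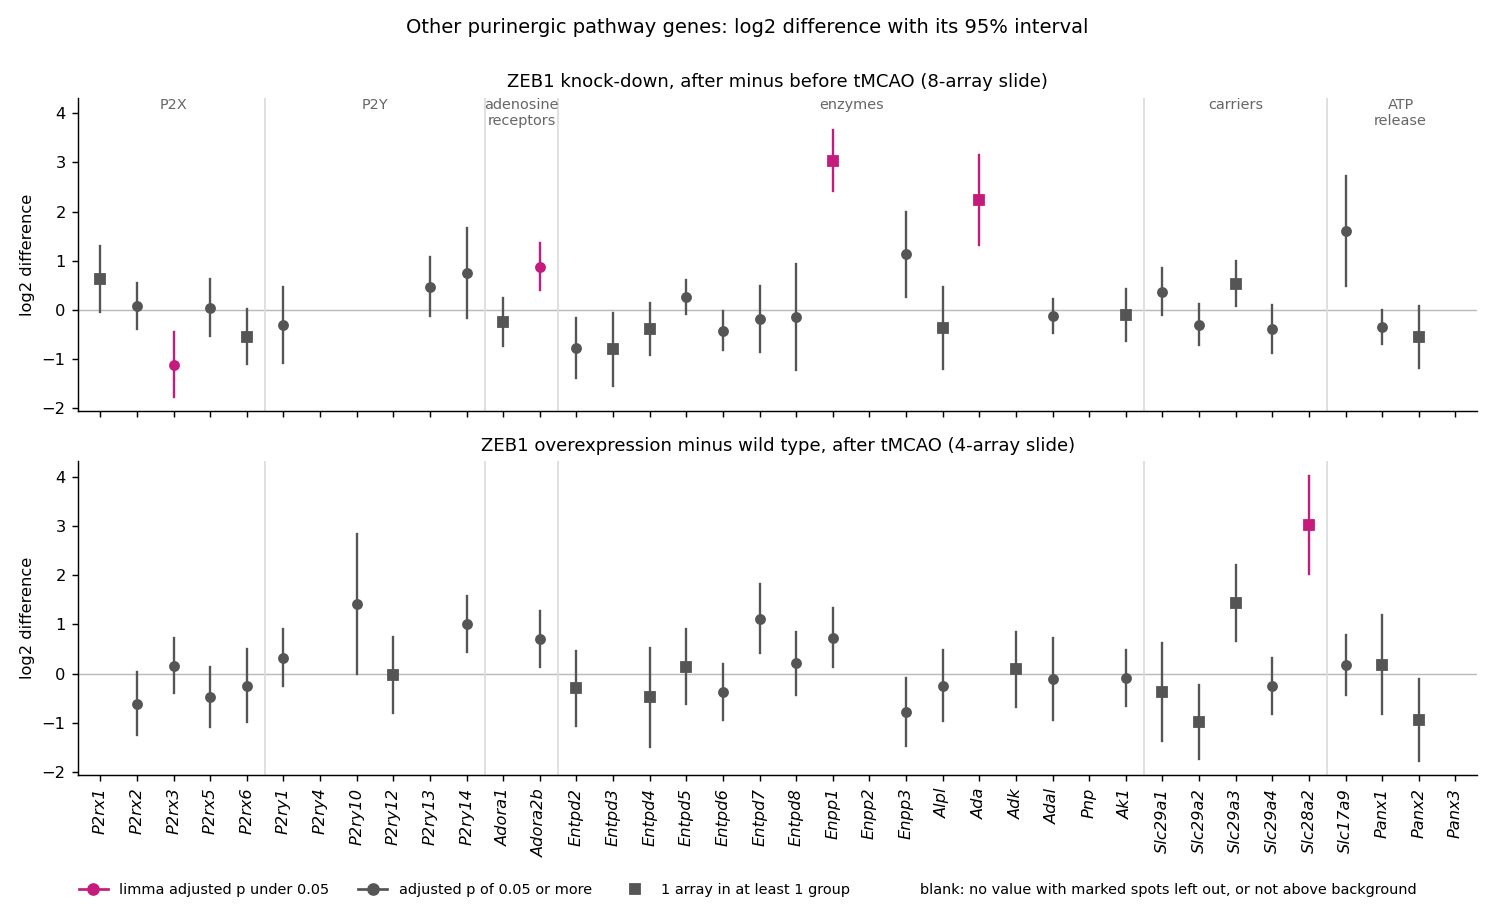
Log2 difference (vertical axes) with its 95% interval for the other purinergic pathway genes, in the arrays labelled knock-down after minus before tMCAO and in the arrays labelled overexpression minus wild type after tMCAO; coloured points passed limma at an adjusted p under 0.05 and squares rest on 1 array in at least 1 group. Enpp1, Ada and Adora2b are higher and P2rx3 lower in the upper panel, and Slc28a2 is the only call in the lower one.

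The genes whose levels ran most like each member over the 8 arrays were listed by Pearson's r among 7469 or 7470 named genes that were unmarked and well above background on all of them. These are descriptions over arrays that share a slide, and for Nt5e they hold no array after tMCAO, since both of its spots there were marked. For P2ry6 and Entpd1 they hold only 1 array after tMCAO, so that array weighs heavily in r. For Adora2a, Adora3 and P2ry2 the 2 arrays after tMCAO stood apart from the other 6 and weigh heavily too. The 2 genes named per member were picked for the highest r among 7469 or 7470 over 6 to 8 arrays. Their high r therefore comes in part from that choice. Adora2a ran most like Mrs2 and Gm26868 (r = 0.993 and 0.991), Adora3 like Espl1 and Nppb (both 0.990), P2ry2 like Chsy1 and Tnfaip2 (0.976 and 0.968), P2rx7 like Eif2ak4 and Sema4d (0.988 and 0.979) and P2rx4 like Col8a1 and Kdr (0.955 and 0.954). Over the arrays with an unmarked spot, P2ry6 ran most like Gm9054 and Ppic (7 arrays, 0.997 and 0.996), Entpd1 like Icam2 and Pum3 (7 arrays, 0.997 and 0.990) and Nt5e like Fam205c and Wfikkn2 (6 arrays, 0.976 and 0.975). P2ry6 had 660 genes at an r over 0.9 and Adora3 440, whereas P2rx4 had 12. The count for P2ry6 rests on 7 arrays and the other 2 counts on 8.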

How the data were processed

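The scanner files that the authors deposited hold linear fluorescence intensity per spot, background-subtracted by Agilent Feature Extraction 11.5.1.1 per the file headers (the submitters' processing notes name version 9.1). Their yes or no spot marks, a unit of the kind "other", are as deposited by the authors. The value tables the authors deposited hold log2 values per probe, with column medians from -3.75 to -3.04. Set against them, the values used here ran with a slope of 1.0 and an offset of -0.53 to -0.14 by array, so the constant the authors subtracted stays unknown. In the knock-down group after tMCAO, the 2 deposited columns fit the scanner files in crossed order (correlation with their own 0.975).

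Here, log2 intensity minus the array's 75th percentile (1078 to 1515 units on the 4-array slide, 2566 to 3702 on the other) was averaged over a probe's unmarked spots. A probe was kept if 1 or more groups of its slide had it well above background throughout, and a gene was read from its probe with the highest mean level. Groups of a slide were fitted together in limma 3.58.1 (in R 4.3.3; two-sided moderated tests from lmFit and eBayes), and p-values were adjusted by Benjamini-Hochberg over all genes. The fit was tested on simulated data. Each slide was a single slide and scan. Probes were named by RefSeq accession (48.1% and 59.7% of probes). The members and gene lists were chosen with earlier results of these data known. The text names all 8 members, pathway genes past the threshold or with the 2 largest differences per comparison among those well above background on every array of both groups, and a fixed list of other receptors, enzymes and channels. Background correction by normexp, planned on mean signals, used median signals, since the files read here hold those. The number of arrays limits the precision.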

Additional observations from a re-analysis of the deposited data

Results flagged for a closer look

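P2ry6 differed in opposite directions between overexpression-labelled and wild type arrays at the 2 times. Before tMCAO both overexpression-labelled arrays lay below both wild type arrays, with a log2 difference of -0.33, and after tMCAO both lay above them, with a difference of 0.42. The change of direction was not tested, the 2 differences were read by different probes on different slides, and neither passed limma on its own (adjusted p = 0.441 and 0.379).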

How the results depend on the processing

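In the arrays labelled knock-down, 4 genes (P2ry6, Adora2a, Adora3 and P2ry2) were called after against before tMCAO. Of the 11 alternatives, Adora2a, Adora3 and P2ry6 kept their call and direction in all, and P2ry2 in 10. Entpd1, not called otherwise, was called in 3 alternatives and P2rx7 in 1. Leaving out each array gave 2 to 5 called members, and 825 to 3789 called genes, against 4460. That count was 2118 with no filter on dim probes, 7442 with normexp and 2310 with only the compared groups in the fit. For overexpression against wild type after tMCAO (516 genes), it was 895 with all spots kept, 777 in the authors' deposited table, 940 and, added after seeing the data, 1426 over single probes without and with marked spots, 343 with the mean of a gene's probes, 0 with no filter, 328 with quantile normalization, and 39 to 1103 when each array was left out. The 0 calls at no filter came with more genes tested. The causes of these changes in count were not tested. Before tMCAO quantile normalization called 6, 1 and 6 genes (overexpression against wild type, knock-down against wild type, overexpression against knock-down), and leaving out an array 0 to 2, 0 to 3 and 0; no member was called in any of these.

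With the replicate block, 4 members were called for knock-down after against before tMCAO among 4686 genes, 444 genes were called for overexpression against wild type after tMCAO, and no member's call changed. Of the other pathway genes called, P2rx3 alone lost its call (adjusted p = 0.0554). The numbers do not pair the samples (correlations of same-numbered deviations from -0.11 to 0.28).

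Some member differences changed sign, none of them called. With normexp, Adora2a was at 0.052 (overexpression against knock-down), P2rx4 at -0.078 (overexpression against wild type after tMCAO) and P2rx7 at 0.045 (overexpression against wild type before tMCAO). With quantile normalization Adora3 was at 0.0029 (knock-down against wild type) and P2rx7 at 0.010 (overexpression against wild type, before). With the mean of all probes P2rx4 was at -0.10 (knock-down, after against before) and Entpd1 at 0.067 (overexpression against knock-down). When an array was left out, the ranges that crossed 0 were, for overexpression against knock-down, -0.18 to 0.0016 (Adora2a), -0.30 to 0.019 (Entpd1) and -0.27 to 0.45 (Nt5e), and for knock-down against wild type -0.19 to 0.0044 (Adora3), -0.27 to 0.044 (Entpd1), -0.021 to 0.17 (Nt5e) and -0.016 to 0.55 (P2ry2). For overexpression against wild type they were -0.19 to 0.53 (Nt5e) and -0.13 to 0.070 (P2rx7) before tMCAO and -0.19 to 0.33 (Adora3) and -0.21 to 0.32 (P2rx4) after it. P2rx4 ran from -0.28 to 0.51 in knock-down after against before. A difference with only 2 arrays a group, or 1 where a spot was marked, can be missed at this precision.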
